A study of Sus scrofa with 12 samples.

Results

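The miR-99, miR-100 and miR-125 family was followed through testes of boars of the Hezuo (HZ) and Landrace (LC) breeds, before and after the age at which HZ boars become sexually mature. Its members are the listed miRNAs named miR-99, miR-100 or miR-125, with or without a letter a to c, and the rows named lin-4, the nematode relative of miR-125. The rule reads the name and no measured value, although the family was proposed with earlier results of these data known. They are 18 of the 1452 miRNAs listed, of which 6 carry a pig name (prefix ssc) and 12 are of the class the authors call known, whose names carry no species.

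The 12 small RNA libraries were made from total RNA of testes removed by castration and frozen, with 3 libraries in each of 4 groups. Ha and Hb came from HZ boars of 30 and 120 days, and La and Lb from LC boars of 30 and 120 days. No group was treated. Whole testis was sampled, so fewer cells of a type and less RNA per cell cannot be told apart. The methods give 3 boars per breed and age, and RNA extracted from pooled samples. It is not given in the sources used here if each library is a separate boar, so SD and p-values measure the spread between libraries.

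In mammals these miRNAs are encoded in a few small clusters, in which a miR-99 or miR-100 gene lies near a let-7 gene and a miR-125 gene. They are an old group: lin-4 was found as a timing gene of nematode larvae, and miR-100 is among the most widely conserved animal miRNAs. A miRNA guides a silencing complex to messenger RNAs through its seed, bases 2 to 8 from the 5′ end. The miR-99 and miR-100 members therefore read other sites than miR-125. Known targets of the miR-99/100 seed include MTOR, a growth kinase, and those of miR-125 include LIN28, an RNA-binding protein that blocks let-7 maturation.

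The sequences are shown because the family is read through its seeds and because several members differ by so little. They are given 5′ to 3′ as the deposited table lists them, with T for U and the seed in capitals. The seed ACCCGTA is shared by 5 members, of which these are the pig-named ones and the longer form of miR-99a.
ssc-miR-99a-5p: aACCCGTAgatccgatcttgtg
ssc-miR-100: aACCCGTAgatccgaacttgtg
ssc-miR-99b: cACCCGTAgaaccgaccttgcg
miR-99-z: aACCCGTAgatccgatcttgtgaa

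Counted from the 5′ end, ssc-miR-99a-5p and ssc-miR-100 differ by the single substitution T16A. ssc-miR-99b differs from ssc-miR-99a-5p by 4 substitutions, A1C, T11A, T16C and T21C. None of these falls in the seed. miR-99-z is ssc-miR-99a-5p with 2 more bases at the 3′ end. The fifth member with this seed, miR-100-z, is listed with a sequence 2 edits from ssc-miR-99a-5p and 3 edits from ssc-miR-100. It therefore stands closer to miR-99a than to the miRNA it is named after.

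A further pair, miR-99-x and miR-100-x, begins with an added base, which moves the seed to AACCCGT.
miR-99-x and miR-100-x: cAACCCGTagatccgatcttgt
The table lists this sequence for both rows but gives them different counts, 71342 for miR-99-x and 31689 for miR-100-x over all libraries. Over all rows, 37 sequences are listed more than once, and 12 of these have rows with different counts. The listed sequence thus does not fix which tags a row of the known class counted. Tags of members that differ by a base or an end may also have been split between rows, and their rows are not independent measurements.

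The seed CCCTGAG is shared by 6 members, among them the pig-named miR-125 miRNAs and the lin-4 rows with the 5′ arm.
ssc-miR-125b: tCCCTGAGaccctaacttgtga
ssc-miR-125a: tCCCTGAGaccctttaacctgtg
lin-4-z: tCCCTGAGacctaacttgtga
lin-4-x: tCCCTGAGaccctacttgtga
ssc-miR-125b and ssc-miR-125a are 4 edits apart, and lin-4-z and lin-4-x are each 1 edit from ssc-miR-125b. The rows miR-125-z and miR-125-x are ssc-miR-125b and ssc-miR-125a with 2 more bases at the 3′ end.

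The remaining 5 members are ssc-miR-99a-3p, miR-99-y, miR-100-y, miR-125-y and lin-4-y. They are shown because each is the other arm of a hairpin or is named as such, with a seed other than those above.
ssc-miR-99a-3p: cAAGCTCGcttctatgggtct
miR-99-y: cAAGCTCGcttctatgggtctga
miR-100-y: cAAGCTCGtgtctgtgggtct
miR-125-y: aCAAGTCAggctcttgggacct
lin-4-y: gCGCCTGGgctctctgtgt
miR-100-y carries the seed of the miR-99a 3p arm and differs from ssc-miR-99a-3p by C9T, T10G and A14G. miR-99-y is ssc-miR-99a-3p with 2 more bases.

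By the RefSeq annotation of Sscrofa11.1, the genes found for the pig-named members lie in 3 clusters. A further MIR125B gene had no entry there, so ssc-miR-125b is placed at MIR125B-1 only and a cluster may be incomplete. MIR99A is at chr13:181302483-181302562, and MIRLET7C follows it after 646 bases, both within the protein-coding gene LOC106508546. MIR125B-1 is at chr9:49109435-49109514, within the long non-coding RNA gene LOC106504205. MIRLET7A-1 lies 43071 bases further on, and MIR100, at chr9:49157909-49157988, lies 48394 bases from MIR125B-1. MIR125A is at chr6:58331566-58331645, with MIRLET7E 396 bases and MIR99B, at chr6:58332211-58332280, 565 bases away. Exons and introns of the spanning genes were not given in the annotation used here.

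Between 6520197 and 16874633 counts per library fell on listed miRNAs. Levels are given as the TPM that the authors deposited, in which 3 counts correspond to 0.158 to 0.404 TPM. Replicate 2 of Hb stood apart from the other Hb libraries in this family, with the highest ssc-miR-99a-5p and ssc-miR-100 and the lowest ssc-miR-125b and ssc-miR-125a of all 12 libraries. Its TMM factor, computed over all 12 libraries, was 0.694 and the lowest of all. TMM is the scaling between libraries used in the tests, and each comparison of 6 libraries had its own factors. Values without it are given beside several results.

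The family was a large part of the testis miRNAs at both ages. In HZ its share of listed counts was 19.3% ± 0.900 (SD, n = 3) at 30 days and 19.2% ± 3.89 (SD, n = 3) at 120 days. In LC it was 21.1% ± 0.757 (SD, n = 3) and 17.9% ± 0.879 (SD, n = 3). The Hb libraries were at 17.6%, 23.6% and 16.3%, so that the range of Hb enclosed that of Ha, while the La libraries were all above the Lb libraries. Over all libraries ssc-miR-99a-5p made up 53.2% of the family's counts, ssc-miR-125b 21.6%, ssc-miR-125a 9.47%, ssc-miR-100 9.27% and ssc-miR-99b 3.95%. The 12 known rows together held only 0.359% to 0.561% of any library's listed counts.

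The seed groups made up different parts of this share. Members with the seed CCCTGAG held 7.25% ± 0.506 (SD, n = 3) in Ha and 7.75% ± 0.110 (SD, n = 3) in La. At 120 days they held 5.20% ± 0.614 (SD, n = 3) in Lb, and 5.18%, 1.78% and 3.92% in the Hb libraries. In both breeds all libraries at 120 days were below all those at 30 days. Members with the seed ACCCGTA held 11.8% in Ha and 15.3% in Hb, where the libraries ranged from 12.2% to 21.6%. They held 13.1% in La and 12.5% in Lb.

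**Figure D1:**
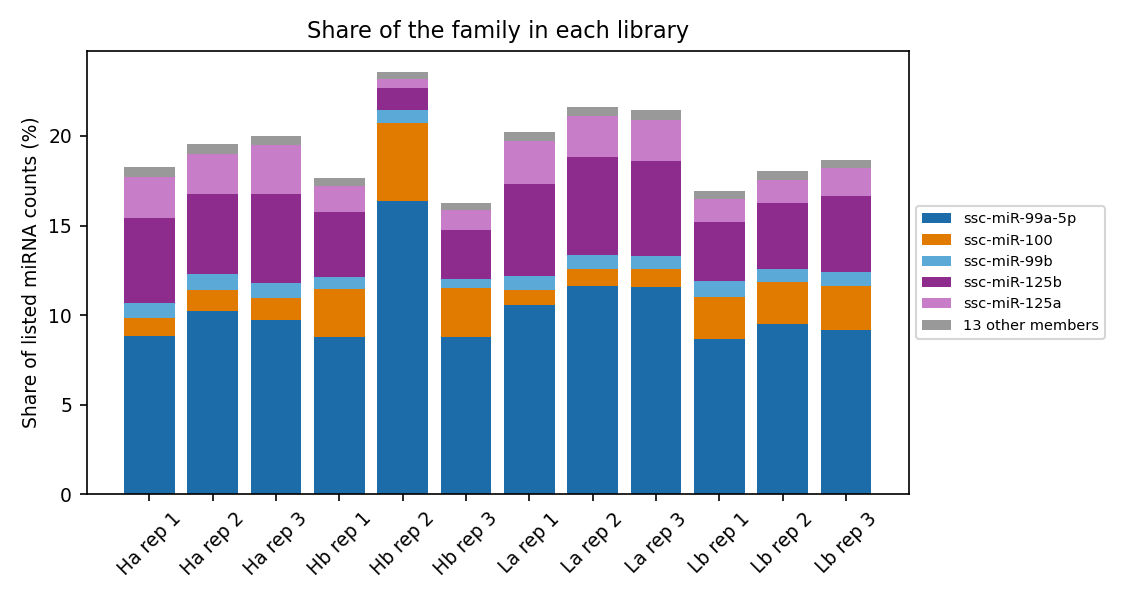
Share of listed miRNA counts (%) held by the family in each of the 12 libraries, stacked by member, with grey for the 13 members not named in the legend. The purple miR-125 segments are smaller and the orange ssc-miR-100 segment larger at 120 days (Hb, Lb) than at 30 days (Ha, La), and the tallest bar is Hb replicate 2 at 23.6%.

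ssc-miR-99a-5p was the most abundant of all 1452 listed miRNAs, with a mean of 91182 TPM over the 12 libraries. It stood at 78240, 90369 and 86947 TPM in Ha and at 94346, 103762 and 103097 TPM in La. At 120 days it stood at 77318, 145668 and 76247 TPM in Hb and at 75140, 83231 and 79820 TPM in Lb. All Lb libraries were below all La libraries, whereas in HZ the Hb libraries lay on both sides of the Ha libraries.

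ssc-miR-125b ranked 8th, ssc-miR-100 13th, ssc-miR-125a 16th and ssc-miR-99b 28th by mean TPM. ssc-miR-125b measured 41683, 39574 and 44274 TPM in Ha against 31977, 10863 and 23520 TPM in Hb. In LC it measured 45781, 48917 and 47446 TPM in La against 28780, 31786 and 36582 TPM in Lb. No library at 120 days reached the lowest at 30 days in either breed. Such a separation, here and for other members, is a description. The share of all miRNAs that show it was not counted.

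ssc-miR-125a, the other miR-125 of the pig set, was read at 20322, 19368 and 24336 TPM in Ha and at 12813, 4782 and 9930 TPM in Hb. In LC it was read at 21293, 20475 and 20008 TPM in La and at 11035, 11551 and 13717 TPM in Lb. The ages again did not overlap within a breed.

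ssc-miR-100 went the other way. It was counted at 8654, 10232 and 10556 TPM in Ha and at 23096, 39009 and 23669 TPM in Hb. In LC it was counted at 7664, 8730 and 8721 TPM in La and at 20768, 20337 and 21484 TPM in Lb. Every library at 120 days was far above every library at 30 days. ssc-miR-99b stayed within a narrow band, from 4716 to 7838 TPM over all libraries, and its ages overlapped in LC but not in HZ.

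The order of the levels was the same in the 6 libraries at 30 days: ssc-miR-99a-5p, ssc-miR-125b, ssc-miR-125a, ssc-miR-100 and ssc-miR-99b. In every library at 120 days, of both breeds, ssc-miR-100 stood above ssc-miR-125a. In Hb the range of ssc-miR-125b overlapped those of ssc-miR-100 and ssc-miR-125a, and the range of ssc-miR-125a overlapped that of ssc-miR-99b. These neighbours were thus not told apart by their spread. In Hb replicate 2 ssc-miR-99b stood above ssc-miR-125a. The members ordered here are of nearly equal length, at 22 or 23 bases.

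**Figure D2:**
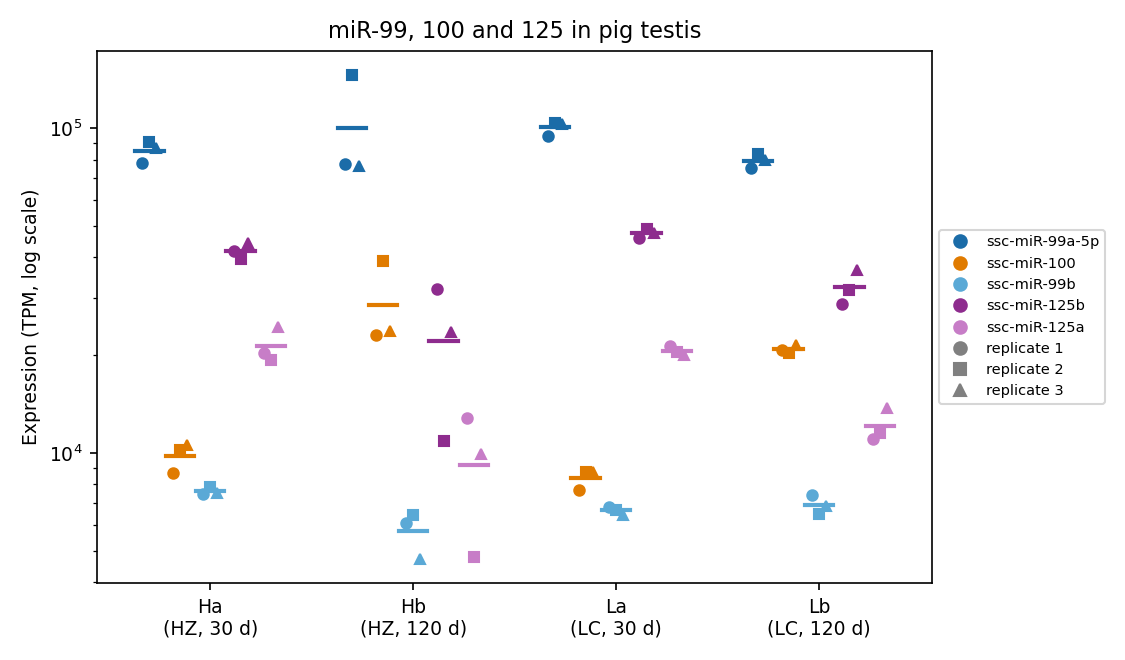
TPM (log axis) of the 5 pig-named 5′-arm members in each library of Ha, Hb, La and Lb, with a bar for the group mean and a marker shape for each replicate. ssc-miR-100 sits between 7664 and 10556 TPM at 30 days and between 20337 and 39009 TPM at 120 days, while ssc-miR-125a and ssc-miR-125b sit lower at 120 days.

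The first comparison asked what changed between 30 and 120 days in HZ testes (Ha vs. Hb). Of the 18 members, 1 rose and 4 fell at an edgeR adjusted p under 0.05. Over all 1441 miRNAs, 34.3% passed, 21.3% upward and 13.0% downward. The study's thresholds ask for a change of over 1 on the log2 scale with an unadjusted p under 0.05. By these 2 members rose and 1 fell, where 39.6% of all miRNAs passed, 25.1% upward and 14.4% downward. The median log2 fold change was -0.30 over the members and 0.32 over all miRNAs tested. Above a mean level of 10 TPM these medians were -0.37 over 14 members and 0.01 over 437 miRNAs. The same 5 calls are among those 14 members, where 46.9% of the 437 passed.

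The member that rose was ssc-miR-100, 3.43-fold higher in Hb (log2 fold change 1.78 ± 0.34 (SE), adjusted p = 0.00136). Those that fell share the seed CCCTGAG. ssc-miR-125a fell by 1.17 ± 0.25 on the log2 scale (SE, adjusted p = 0.00236) and ssc-miR-125b by 0.89 ± 0.24 (SE, adjusted p = 0.0128). Their longer rows miR-125-x and miR-125-z fell by 0.96 each (adjusted p = 0.00863 and 0.0327). ssc-miR-99a-5p, at 0.48 ± 0.35 (SE, adjusted p = 0.302), did not pass, and neither did ssc-miR-99b at -0.23 ± 0.27 (SE, adjusted p = 0.529).

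Hb replicate 2 weighed on several of these values. Without it, ssc-miR-100 was higher in Hb by 1.21 (adjusted p = 5.42e-07), and ssc-miR-125a and ssc-miR-125b were lower by log2 fold changes of -0.97 and -0.66, all still past the threshold. ssc-miR-99a-5p changed sign to -0.20 (adjusted p = 0.296). ssc-miR-99b (-0.56, adjusted p = 0.0106), miR-99-z (-0.64, adjusted p = 0.0136) and miR-125-y (-0.81, adjusted p = 0.00191) then passed as lower, and miR-100-y (1.53, adjusted p = 0.0144) as higher, so that 9 members passed instead of 5. In that fit 2 were higher and 7 lower, and 39.5% of all miRNAs passed. Without Hb replicate 1, 8 members passed, 4 higher and 4 lower, where 38.0% of all miRNAs passed. Those added as higher were ssc-miR-99a-5p (0.91, adjusted p = 0.0281), miR-100-x (1.14, adjusted p = 0.00711) and miR-100-z (0.95, adjusted p = 0.0110). The call of ssc-miR-125b was lost without Ha replicate 1 (adjusted p = 0.101) or Ha replicate 3 (adjusted p = 0.0606), with log2 fold changes of -0.89 and -0.85. That of miR-125-x was lost without Ha replicate 2 (adjusted p = 0.0629), and that of miR-125-z without Ha replicate 1 (adjusted p = 0.0847) or 2 (adjusted p = 0.112) and with scaling by library size (adjusted p = 0.103).

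The same ages were compared in LC (La vs. Lb). Of the 18 members, 3 rose and 9 fell by adjusted p, where 40.2% of 1446 miRNAs passed, 26.8% upward and 13.4% downward. With the thresholds of the study 2 members rose and 0 fell, where 32.1% of all miRNAs passed (26.3% upward, 5.81% downward), since the members that fell did so by less than 1 on the log2 scale. With all 12 libraries in 1 fit, which shares 1 estimate of the spread, 6 members passed in LC and 9 in HZ, where 33.0% and 42.3% of all miRNAs passed, so the breeds are not ranked by their counts. The median log2 fold change was -0.36 over the members and 0.32 over all miRNAs tested, and -0.40 and -0.06 above a mean level of 10 TPM. Above that level 11 of 14 members passed, where 61.8% of 437 miRNAs did.

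ssc-miR-100 was again the abundant member that rose, 2.20-fold (log2 fold change 1.14 ± 0.10 (SE), edgeR adjusted p = 2.61e-06). ssc-miR-125a fell by 0.94 ± 0.11 on the log2 scale (SE, adjusted p = 2.12e-05) and ssc-miR-125b by 0.73 ± 0.12 (SE, adjusted p = 0.000295). ssc-miR-99a-5p, the leading miRNA of the testis, fell by 0.52 ± 0.10 (SE, adjusted p = 0.00182). In the fit over all 12 libraries this fall was -0.58 and no longer passed (adjusted p = 0.173). ssc-miR-99b stood at -0.12 ± 0.09 (SE, adjusted p = 0.279).

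Among the less abundant members, miR-125-x (-0.82, edgeR adjusted p = 0.00181), miR-125-z (-0.58, adjusted p = 0.00248) and ssc-miR-99a-3p (-0.61, adjusted p = 0.00534) fell. So did miR-125-y (-0.37, adjusted p = 0.00771), miR-99-x (-0.42, adjusted p = 0.0141) and miR-99-z (-0.34, adjusted p = 0.0371). miR-100-z rose by 0.40 (adjusted p = 0.0264), and miR-100-y by 1.74 (adjusted p = 0.00629) from 4 to 18 counts per library in La to 16 to 57 in Lb. The calls of miR-99-z, miR-99-x and miR-100-z were lost in 7, 6 and 5 of 14 alternative fits, and those of miR-99-z, miR-99-x and miR-125-y were lost when libraries were scaled by their size alone. With all 12 libraries in 1 fit, miR-125-z (-0.64, adjusted p = 0.0656) and miR-125-y (-0.43, adjusted p = 0.0859) did not pass either.

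**Figure D3:**
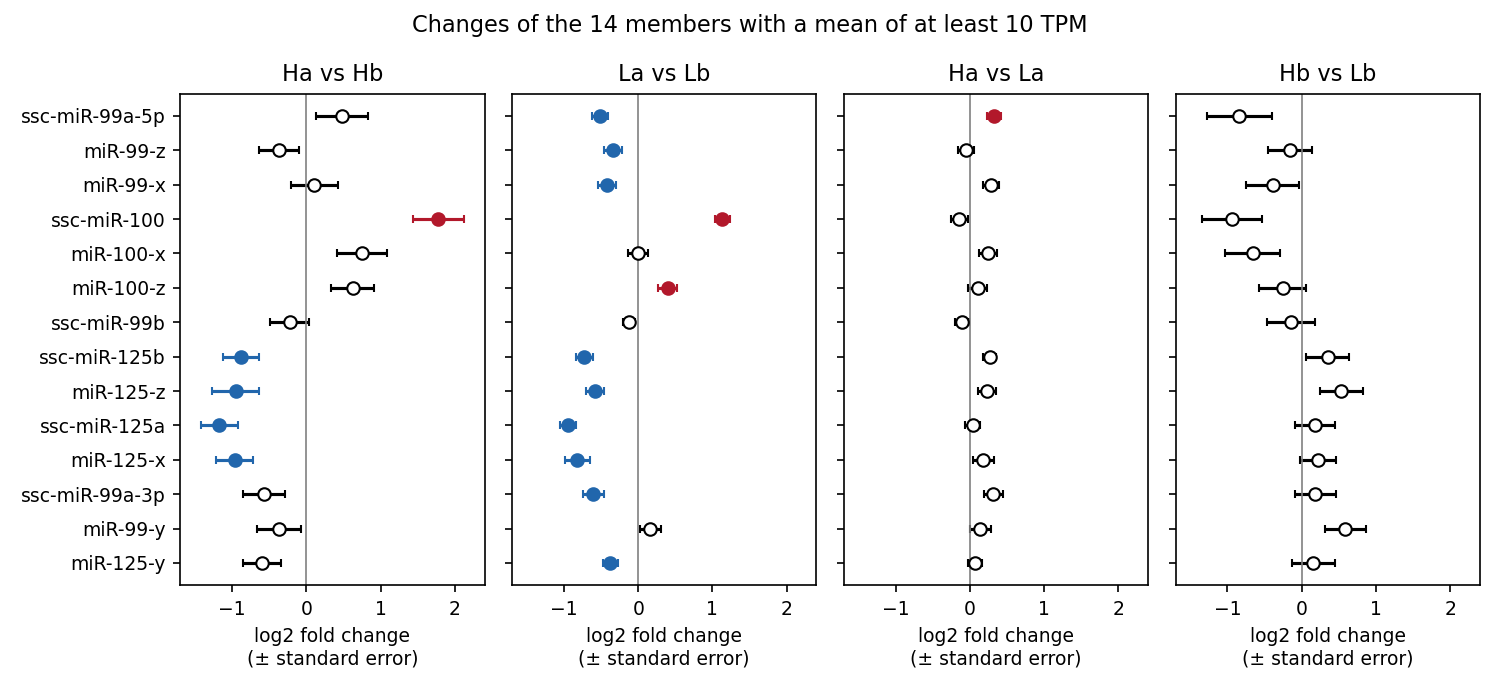
Log2 fold change ± SE of the 14 members with a mean of at least 10 TPM in the 4 comparisons, each of the second group over the first, with filled points for adjusted p under 0.05 (red higher, blue lower). ssc-miR-100 is the red point farthest to the right in both age comparisons, at 1.78 and 1.14, and the 4 rows drawn with the seed CCCTGAG are blue in both, although miR-125-z in La vs. Lb loses its call with all 12 libraries in 1 fit.

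The ages also differed in cell markers and in libraries. The miRNAs of meiotic and haploid germ cells (5 rows, ssc-miR-34c and miR-34 and miR-449 rows) summed to 24.1 to 78.5 TPM in Ha and 2626 to 13323 TPM in Hb. In LC they summed to 17.2 to 25.2 TPM in La and 11389 to 14037 TPM in Lb. Those of smooth muscle and peritubular cells (2 rows) ranged from 18396 to 31675 TPM in Ha and from 50526 to 83184 TPM in Hb, and from 17905 to 23427 TPM in La and from 47420 to 56324 TPM in Lb. The striated muscle rows (4 rows) ran from 128 to 277 TPM in Ha and 432 to 720 TPM in Hb, and in LC from 106 to 197 and from 674 to 815 TPM. No row of these lists was at 0 in all libraries. Blood (7 rows) went from 2345 to 2696 TPM in Ha to 1232 to 3071 TPM in Hb, and from 3361 to 3765 TPM in La to 1882 to 2333 TPM in Lb. Endothelium (2 rows) was lower at 120 days without overlap, like miR-125, from 12482 to 15560 TPM in Ha and 11040 to 11910 TPM in Hb. In LC it was at 11485 to 13103 TPM in La and 8529 to 10997 TPM in Lb. The 3 epithelium rows matched of those listed lay between 28.2 and 150.3 TPM. Gonadal miR-202 (2 rows) was lower at 120 days in HZ, from 18568 to 21737 TPM in Ha and 9575 to 17214 TPM in Hb, with the lowest value in Hb replicate 2. In LC it was higher at 120 days, from 15179 to 17180 TPM in La and 17897 to 24312 TPM in Lb. The part of these cell types in the changes of the family was not tested.

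The breeds were compared at each age. At 30 days (Ha vs. La), 1 of 17 members tested passed as higher in LC and 0 as lower, where 11.3% of 1278 miRNAs passed, 5.01% as higher and 6.34% as lower. Above a mean level of 10 TPM 22.7% passed. That member was ssc-miR-99a-5p, at a log2 fold change of 0.32 ± 0.10 (SE, edgeR adjusted p = 0.0442), with all La libraries above all Ha libraries. It kept this call in 6 of 14 alternative fits, over which the adjusted p ranged from 0.00276 to 0.680. ssc-miR-125b was close to the threshold at 0.27 ± 0.09 (SE, adjusted p = 0.0667). ssc-miR-100 stood at -0.14 ± 0.11 (SE, adjusted p = 0.492) and ssc-miR-125a at 0.04 ± 0.10 (SE, adjusted p = 0.872).

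At 120 days (Hb vs. Lb), 0 of 18 members passed in edgeR or in DESeq2, and 1 had an unadjusted p under 0.05, where 3.25% of 1444 miRNAs passed by adjusted p in edgeR and 8.31% in DESeq2. Above a mean level of 10 TPM 4.81% did in edgeR. That member was ssc-miR-100, lower in Lb at -0.94 ± 0.40 (SE, adjusted p = 0.199). Without Hb replicate 2 its difference was -0.20, and without Hb replicate 1 it was -1.24 (adjusted p = 0.0436). ssc-miR-99a-5p stood at -0.84 ± 0.44 (SE, adjusted p = 0.290), and at 0.02 without Hb replicate 2. The intervals of 2 SE on each side ran from -1.72 to 0.04 for ssc-miR-99a-5p and from -0.22 to 0.92 for ssc-miR-125b, whose difference of 0.35 was 0.21 without Hb replicate 2.

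Whether the age effect differed between breeds was tested as an interaction over all 12 libraries. In edgeR and in DESeq2, 0 of 18 members passed by adjusted p, where 1.38% of 1452 miRNAs passed in edgeR and 8.82% in DESeq2. Above a mean level of 10 TPM 3.20% passed in edgeR. The thresholds of the study took in 1 member, where 17.1% of all miRNAs passed, and 1 member had an unadjusted p under 0.05. This was ssc-miR-99a-5p, whose age effect in LC was below that in HZ by a log2 difference of -1.06 ± 0.43 (SE, adjusted p = 0.162). Without Hb replicate 2 the difference was -0.28 (adjusted p = 0.379), and without Hb replicate 1 it was -1.35 (adjusted p = 0.0220). ssc-miR-100 gave -0.70 ± 0.40 (SE, adjusted p = 0.337), ssc-miR-125b 0.10 ± 0.27 (SE, adjusted p = 0.975) and ssc-miR-125a 0.17 ± 0.26 (SE, adjusted p = 0.816). Without Hb replicate 2 these differences were -0.04, -0.03 and 0.06, and without Hb replicate 1 that of ssc-miR-100 was -0.97 (adjusted p = 0.0636).

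Ratios of counts within a library do not depend on how libraries are scaled, and they are given as a description with no test. ssc-miR-100 and ssc-miR-99a-5p, which the substitution T16A separates, came closer in level with age. There was 0.111 to 0.121 ssc-miR-100 count per ssc-miR-99a-5p count in Ha and 0.0812 to 0.0846 in La. At 120 days the ratio was 0.268 to 0.310 in Hb and 0.244 to 0.276 in Lb. Hb replicate 2, with the highest levels of both miRNAs, was at the low end of this range, and the ages did not overlap in either breed. Between the breeds at 30 days the ranges were apart as well, with less ssc-miR-100 per ssc-miR-99a-5p in LC, whereas at 120 days they overlapped.

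The miR-125 pair also kept a narrow ratio. ssc-miR-125b exceeded ssc-miR-125a 1.82- to 2.05-fold in Ha, 2.27- to 2.50-fold in Hb, 2.15- to 2.39-fold in La and 2.61- to 2.75-fold in Lb. Here too the libraries at 120 days lay above those at 30 days of the same breed, and Hb replicate 2, at 2.27, was the lowest of its group and still above Ha. Across the seed groups the ratio was loose in Hb. The ratio of ssc-miR-99a-5p to ssc-miR-125b was 1.88 to 2.28 in Ha, 2.06 to 2.17 in La and 2.18 to 2.62 in Lb, but 2.42 to 13.4 in Hb.

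**Figure D4:**
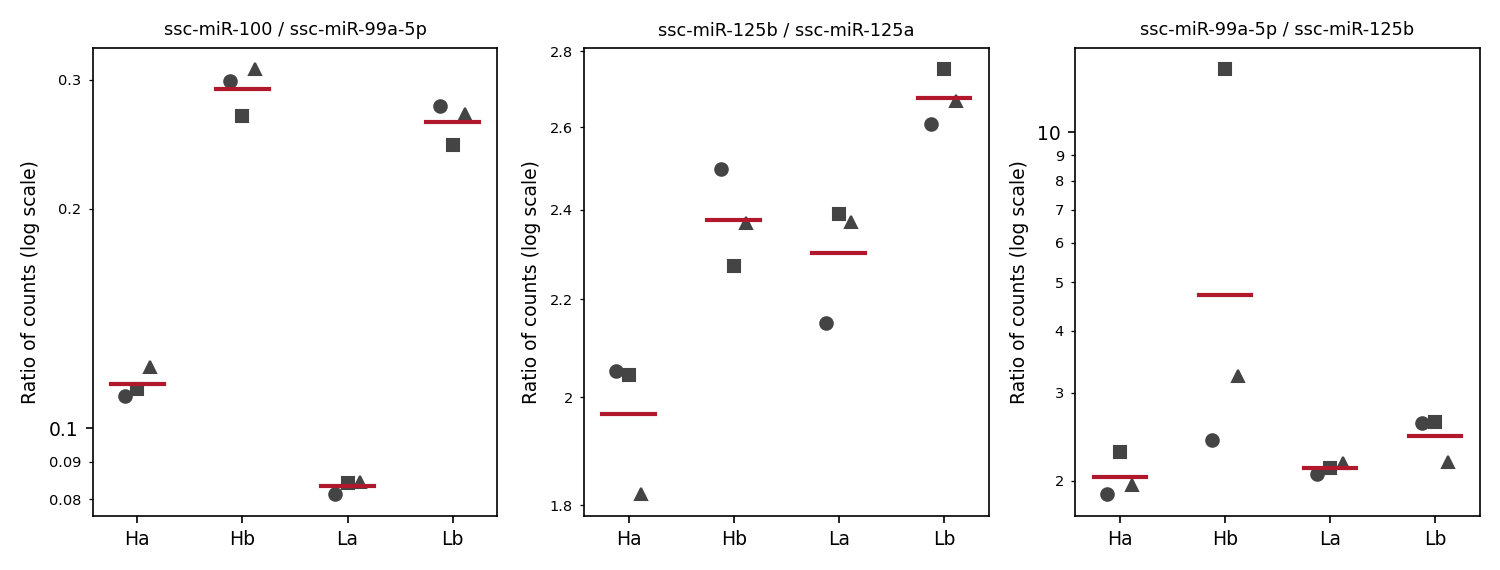
Ratio of counts (log axis) of ssc-miR-100 to ssc-miR-99a-5p, of ssc-miR-125b to ssc-miR-125a and of ssc-miR-99a-5p to ssc-miR-125b in each library, with a line for the geometric mean of a group and a marker shape for each replicate. The first ratio is at most 0.121 at 30 days and at least 0.244 at 120 days, and in the last panel Hb replicate 2 stands at 13.4.

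The rows miR-99-x and miR-100-x, for which the same sequence is listed, showed the same kind of shift. The ratio of miR-100-x to miR-99-x was 0.376 to 0.393 in Ha and 0.367 to 0.379 in La. At 120 days it was 0.548 to 0.618 in Hb and 0.478 to 0.507 in Lb. miR-100-x measured 191 to 208 TPM in Ha, 237 to 382 TPM in Hb, 203 to 237 TPM in La and 243 to 269 TPM in Lb. In La vs. Lb its log2 fold change was 0.00 (edgeR adjusted p = 0.993) while that of miR-99-x was -0.42.

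The 5′ arm was far more abundant than the 3′ arm where both were listed. The log2 ratio of ssc-miR-99a-5p to ssc-miR-99a-3p was 10.60 ± 0.13 (SD, n = 3) in Ha, 10.62 ± 0.07 (SD, n = 3) in La and 10.70 ± 0.07 (SD, n = 3) in Lb, but 11.48 ± 0.97 (SD, n = 3) in Hb. ssc-miR-99a-3p measured 55.3, 53.7 and 54.8 TPM in Ha and 38.0, 23.7 and 41.3 TPM in Hb. In LC it measured 61.0, 62.4 and 68.2 TPM in La and 45.8, 47.4 and 49.6 TPM in Lb. In LC both arms of miR-99a thus fell together. In Hb replicate 2 the arms diverged, with the highest 5p and the lowest 3p level of all libraries.

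miR-125-y, a 3p-named row, was the most abundant 3p-named member, at 1291 to 1332 TPM in Ha and 744 to 807 TPM in Hb. In LC it was at 1272 to 1323 TPM in La and at 1115 to 1141 TPM in Lb. ssc-miR-125b exceeded it 30.0- to 34.3-fold in Ha, 13.9- to 39.6-fold in Hb, 35.7- to 37.3-fold in La and 25.2- to 32.3-fold in Lb. The name miR-125-y has no letter, so the hairpin it comes from is not settled. The ratio therefore need not be between arms of the same hairpin. miR-125-y did not share the deep low of ssc-miR-125b in Hb replicate 2. ssc-miR-100 exceeded miR-100-y by log2 ratios between 12.82 and 13.92 in the group means, but miR-100-y held 4 to 57 counts per library, so that these ratios are imprecise.

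The remaining rows were small. miR-99-y held 16.0 to 52.4 TPM, and its log2 fold change with age was -0.37 in HZ and 0.16 in LC (edgeR adjusted p = 0.343 and 0.399). lin-4-z had 5 to 25 counts per library. lin-4-x had 1 to 6 counts, and lin-4-y had counts in 4 of 12 libraries, with at most 3. The last 2 lie at or near the floor of 3 counts, and no fold change is given for them.

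The let-7 miRNAs made from the same clusters were read beside the members. On chromosome 13, ssc-let-7c fell with age by 0.69 on the log2 scale in HZ (edgeR adjusted p = 0.0275) and by 0.36 in LC (adjusted p = 0.0158), where its neighbour ssc-miR-99a-5p stood at 0.48 and -0.52. On chromosome 6, ssc-let-7e fell by 0.74 (adjusted p = 0.0244) and 0.70 (adjusted p = 9.40e-05), beside the fall of ssc-miR-125a and the values of ssc-miR-99b that did not pass. On chromosome 9, ssc-let-7a stood at -0.25 (adjusted p = 0.376) and -0.20 (adjusted p = 0.111), between ssc-miR-125b, which fell, and ssc-miR-100, which rose. Without Hb replicate 2, ssc-let-7c and ssc-let-7e stood at -0.66 (adjusted p = 0.00469) and -0.81 (adjusted p = 0.00121) in HZ. Over 14 alternative fits the HZ call of ssc-let-7c was lost in 8 (adjusted p up to 0.190) and that of ssc-let-7e in 6 (adjusted p up to 0.164), among them the fits without any 1 Ha library and RLE normalization. In LC the call of ssc-let-7c was lost in 2, without La replicate 3 (adjusted p = 0.0932) and with library-size scaling (-0.15, adjusted p = 0.216). ssc-let-7a ranged from -0.35 to -0.10 in HZ, where it passed in 0 of 14, and from -0.31 to 0.01 in LC, where it passed in 1, without Lb replicate 2 (adjusted p = 0.0341). Members of a cluster thus did not share a direction on chromosome 9. In mammals miR-125b and let-7a are made from more than a single gene, so their mature levels cannot be assigned to the chromosome 9 cluster alone.

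**Figure D5:**
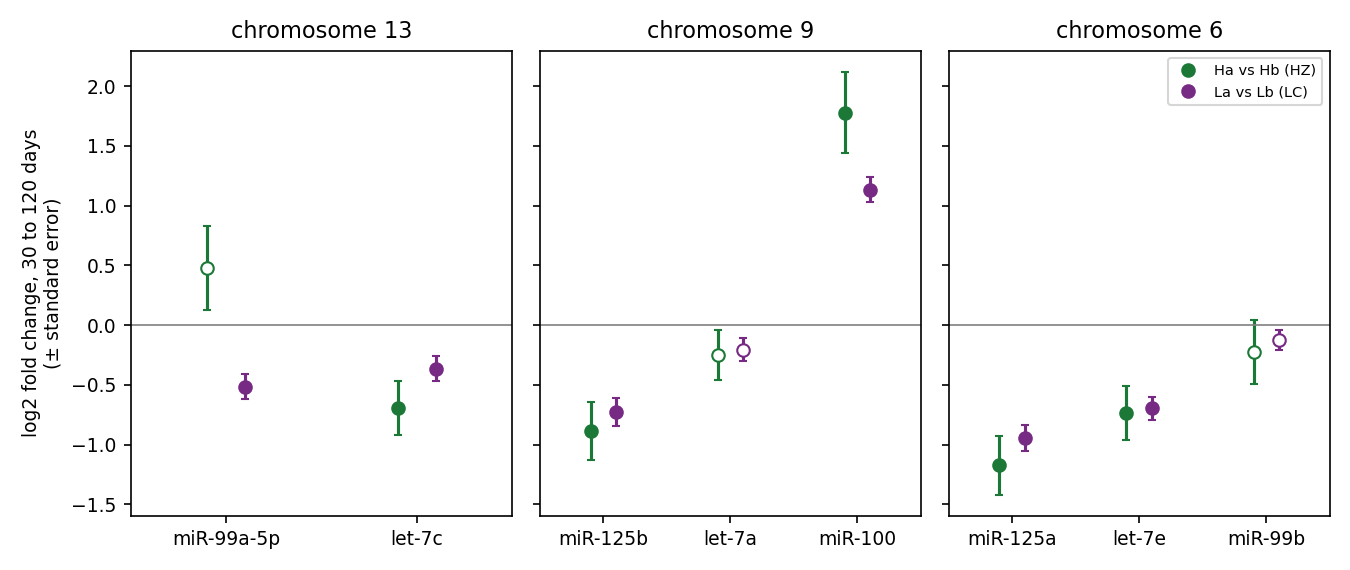
Log2 fold change ± SE from 30 to 120 days in HZ (green) and LC (purple) for the miRNAs whose genes were found in the clusters on chromosomes 13, 9 and 6, in genomic order, with filled points for adjusted p under 0.05. On chromosome 9 ssc-miR-125b lies below 0 and ssc-miR-100 above 0 in both breeds, with ssc-let-7a between them.

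The miR-10 miRNAs, relatives of miR-99 and miR-100 by sequence, have the seed ACCCTGT and are 4 to 7 edits from the pig-named miR-99 and miR-100 members. They are shown because their seed begins with the same letters.
ssc-miR-10a-5p: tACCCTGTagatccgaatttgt
ssc-miR-10b: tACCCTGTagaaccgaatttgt
ssc-miR-10a-5p fell with age, by 1.50 on the log2 scale in HZ (edgeR adjusted p = 0.00523) and by 1.13 in LC (adjusted p = 0.0345). ssc-miR-10b stood at 0.04 in HZ (adjusted p = 0.905) and -0.36 in LC (adjusted p = 0.125). Without Hb replicate 2 the HZ value of ssc-miR-10a-5p was -1.92 (adjusted p = 4.90e-07). Its LC call was lost in 4 of 14 alternative fits, without La replicate 2 (adjusted p = 0.156) or La replicate 3 (adjusted p = 0.0723), in DESeq2 (adjusted p = 0.155) and with filterByExpr (adjusted p = 0.0629), and without Lb replicate 2 the value was -2.04. ssc-miR-10b passed as lower in LC in 2 of 14, at -0.71 without Lb replicate 2 (adjusted p = 0.000198) and with the replicate number as a block. Neither passed as higher at 120 days in these fits.

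The patterns most like those of the leading members were sought among the 201 miRNAs outside the family whose mean level reached 100 TPM. The measure was the root mean square difference of log2(TPM + 1) over the 12 libraries after centring each miRNA. For ssc-miR-99a-5p these were ssc-miR-27a (0.192), miR-181-x (0.239) and ssc-miR-28-5p (0.252), against a median of 0.644 over the pool. ssc-miR-99a-5p itself varied by 0.262 on this scale, so that any steady miRNA is near it. For ssc-miR-125b they were ssc-miR-30c-5p (0.132), ssc-miR-7134-5p (0.160) and ssc-miR-874 (0.201), against a median of 0.563 and its own variation of 0.581. Within the family ssc-miR-125a (0.170) was the nearest to ssc-miR-125b, and ssc-miR-100 (1.29) was the farthest. All these values share the libraries and their depth, and they are a description.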

How the data were processed

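The authors trimmed reads with fastp 0.18.0, removed tags of other non-coding RNAs and of exons, introns and repeats, counted tags on miRBase 22.1 miRNAs and predicted further miRNAs from the tags left over with miRDeep2. Counts were deposited as whole tags per miRNA and library, without normalization. The deposited TPM divides each count by a library total and writes a count of 0 as 0.01. The annotation and positions are Sscrofa11.1.

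Counts were tested with edgeR 4.0.16 in R 4.3.3 (glmQLFit and glmQLFTest, TMM), in 1 fit per comparison of 6 libraries, leaving out miRNAs under 1 count there, and as an interaction over all 12. P-values were adjusted by Benjamini-Hochberg over all miRNAs tested. SE is the absolute log2 fold change divided by the square root of F. Replicates were not duplicates of a library (chi-square between their counts 49.45 to 1178 per degree of freedom), so all entered separately. Depth sets a floor of 3 counts, for counting error only.

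Every family row is accounted for, and those with a mean of at least 10 TPM are described by library. The let-7 partners, miR-10 relatives and the 3 most alike miRNAs were named by rule. Members and lists were chosen with earlier results of these data known. Alternatives were RLE and library-size scaling, totals without the family, DESeq2 1.42.0, filterByExpr, merged identical sequences, 1 fit of all libraries, a replicate block and each library left out. Sequencing reads and mRNA were not used here.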

Additional observations from a re-analysis of the deposited data

How the results depend on the processing

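Of 1194 fold changes refitted under the alternatives, 1086 kept their direction and side of the threshold, 36 lost and 15 gained a call. The other 57 changed sign without a call in either fit, and 0 called values changed sign. The number of members called was 5 in Ha vs. Hb, 9 with all 12 libraries in 1 fit (42.3% of all miRNAs called, 34.3% before), and 3 to 9 with a library left out (3 without Ha replicate 1 or 2, where 25.5% and 24.0% of all were called, and 9 without Hb replicate 2, where 39.5% were). In La vs. Lb it was 12, 6 with all 12 libraries in 1 fit (33.0% of all, 40.2% before), and 9 to 11 with a library left out (31.2% to 42.8% of all). In Ha vs. La it was 1, 0 with library-size scaling, DESeq2, filterByExpr, merged sequences or all 12 libraries in 1 fit, 2 with totals and TMM without the family, and 0 to 2 with a library left out. Of all miRNAs 11.3% were called in that comparison, 2.27% with all 12 libraries in 1 fit, 10.6% to 14.2% with the other settings named, and 20.5% without Ha replicate 3. With any other library left out 6.54% to 9.26% of all miRNAs were called, and 6.54% to 6.70% where 0 members were. In Hb vs. Lb and in the interaction it was 0, and 0 to 1 with a library left out (1 without Hb replicate 1, where 10.5% and 11.6% of all miRNAs were called). With any other library left out 0.833% to 3.40% of all miRNAs were called in Hb vs. Lb, and 0.00% to 2.34% in the interaction. As a share of the TPM total, the family held 17.1% (Ha) and 16.9% (Hb) in HZ, and 18.8% (La) and 15.6% (Lb) in LC. Listed counts made up 86.9% to 89.4% of that total in the libraries. The log2 ratio of ssc-miR-100 to miR-100-y on TPM + 1 was 12.31 in Ha and 12.21 in La. There miR-100-y had means of 0.92 and 0.79 TPM before 1 was added. The cause of the moves in the number of members called was not tested.

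No pairing of the libraries by replicate number was seen: same-numbered libraries had correlations of deviations from -0.156 to 0.126, and 1 to 3 of 6 libraries correlated best with their own number. With 3 libraries per group this check is weak and does not exclude a pairing. With the replicate number as a block the members called were 5, 12, 1, 0 and 0 in the 4 comparisons and the interaction, where 26.6%, 38.3%, 11.4%, 9.56% and 1.38% of all miRNAs were called. The block added a call of ssc-miR-10b in La vs. Lb (-0.40, adjusted p = 0.000279). Library-size scaling moved the median of all miRNAs by 0.21 in La vs. Lb, 0.25 in Hb vs. Lb and 0.32 in the interaction, and 9 members were then called in La vs. Lb, where 40.2% of all miRNAs were, as before. Depth limits miR-100-y and the lin-4 rows, at 57 counts or fewer in a library.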
